A study of Mus musculus with 15 samples.

Results

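Cultures of iRECs, mouse cells induced to a renal tubular epithelial state, in Matrigel and in collagen I were compared gene by gene, through the log2 ratio of each 3D culture to the same cells on flat plates (2D). The comparison covered the 13763 of 27179 listed genes that had a base mean, the authors' mean normalised read count over the fitted libraries, of 10 or more in both comparison tables, and it rested on 6 of the 15 libraries of the study, with the 3 libraries in 2D as the shared denominator. The lowest base mean inside this minimum was 10 and the highest outside it 9.9985. The groups were iRECs embedded by hand in Matrigel (3 libraries), iRECs embedded by hand in collagen I (3 libraries) and iRECs in 2D (3 libraries). All groups were set up side by side from a common cell pool, kept in Renal Epithelial Growth Medium and harvested on day 7. Each group had 1 culture from each of the passages 35, 48 and 53 of 1 cell line, so p-values measure the spread between cultures of that line and not between animals. iRECs are fibroblasts reprogrammed by transcription factors, and they stand for an engineered line rather than for a nephron segment.

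Matrigel is an extract of a mouse tumour that is rich in basement membrane proteins, with laminin and collagen IV as main components. Collagen I forms the fibrils of the interstitium. Epithelial cells hold laminin through integrins such as the α6β4 pair, through dystroglycan and through BCAM, and they hold fibrillar collagen through α1β1 and α2β1 integrins and the discoidin domain receptors. Tubule cells normally rest on a basement membrane with their apical surface, which carries a brush border in the proximal segment, turned to the lumen.

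The deposited values were 1 ratio and 1 standard error per gene and table, with 0 columns of values per library, so values of single cultures are not given and the depth of each library is unknown. The base means summed to 43.8 (in units of 1e6 normalised reads) in the Matrigel table and 42.8 in the collagen I table, both from the authors' deposited tables. Among the tested genes the median standard error of a log2 ratio was 0.20 for Matrigel and 0.24 for collagen I in the authors' deposited tables, and the median combined standard error of the difference was 0.31. All 11 tubule markers examined, among them Pax8, Hnf4a, Cdh16 and Lrp2, were above the minimum. Pax8 and Hnf4a are among the reprogramming factors of this line, so their presence alone does not describe a tubular state. Of those 11, Cdh1 differed between the gels and the other 10 did not pass the test.

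Of the 13763 genes, 66 (0.48%) differed between Matrigel and collagen I at a Benjamini-Hochberg adjusted p under 0.05 from a two-sided normal test of the difference over its combined standard error. Values after ± are standard errors throughout. The direction was uneven, with 58 genes (0.421%) higher and 8 genes (0.0581%) lower in Matrigel than in collagen I. Each of the 66 differed by at least 1.06 on the log2 scale, and 251 further genes with a difference of 1 or more did not pass the test. Without adjustment, 905 genes (6.58%) had a p under 0.05, of which 540 (3.92%) were higher and 365 (2.65%) lower in Matrigel. The median difference over all tested genes was -0.015, with quartiles of -0.24 and 0.21, so the bulk of the transcriptome was centred near 0. The plot of the difference against expression level shows called genes at low and at high base means. With 0.5 of the summed variance, as if the shared 2D libraries carried that share, 636 genes passed, and 62.4% of them rather than 87.9% were higher in Matrigel. Creb3l2, Epha1, Gpx8, Kcnj15, Mylk, Myo1d, Ndrg4 and Slc4a4 lost their call with no minimum on the base mean, and Gpx8, Nrcam and Uchl1 lost it with ratios rescaled for shrinkage.

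**Figure D1:**
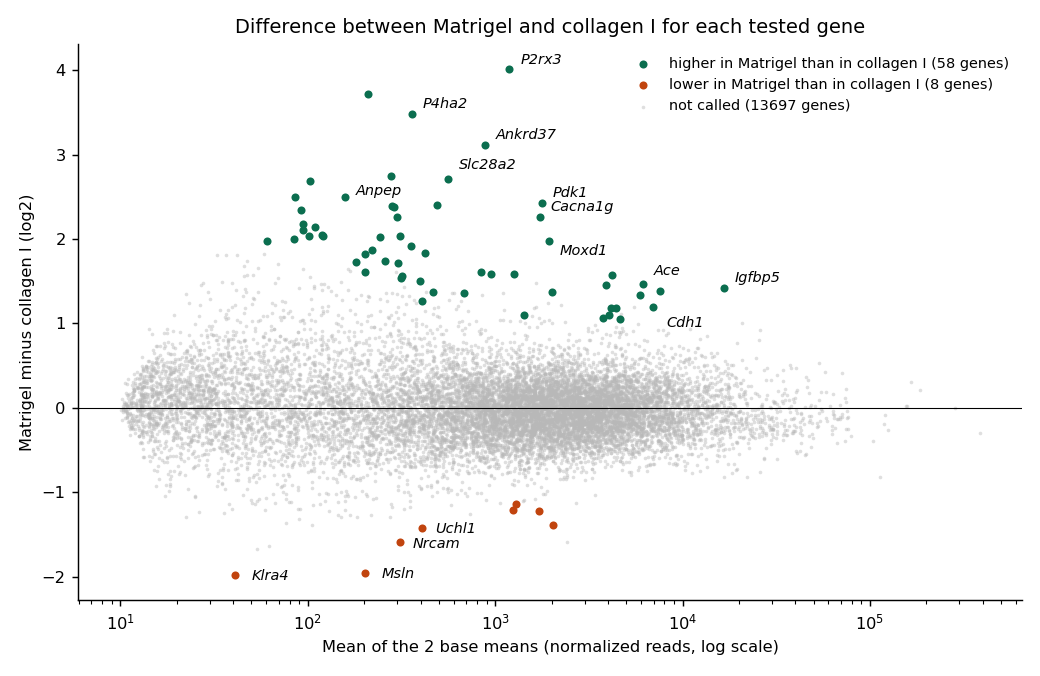
Difference between the log2 ratios to 2D in Matrigel and in collagen I (vertical axis) against the mean of the base means of both tables in normalised reads (horizontal log axis), with 1 point per tested gene. The 58 genes higher in Matrigel reach 4.01 for P2rx3, the 8 lower genes reach -1.98 for Klra4, and grey points did not pass the test.

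Against 2D, 6.7% of the tested genes were called in Matrigel and 11.3% in collagen I in the authors' deposited tables. Of the 66 genes, 29 were called in the authors' deposited table for Matrigel, 48 in that for collagen I and 1 (Kcnj15) in neither. Among the 58 higher genes, 23 had risen in Matrigel and 42 had fallen in collagen I by the authors' deposited tables. Among the 8 lower genes, 3 had fallen in Matrigel and 6 had risen in collagen I by the same authors' deposited tables. Since both ratios share the 2D libraries, these counts describe where the difference lies and are not separate tests.

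**Figure D2:**
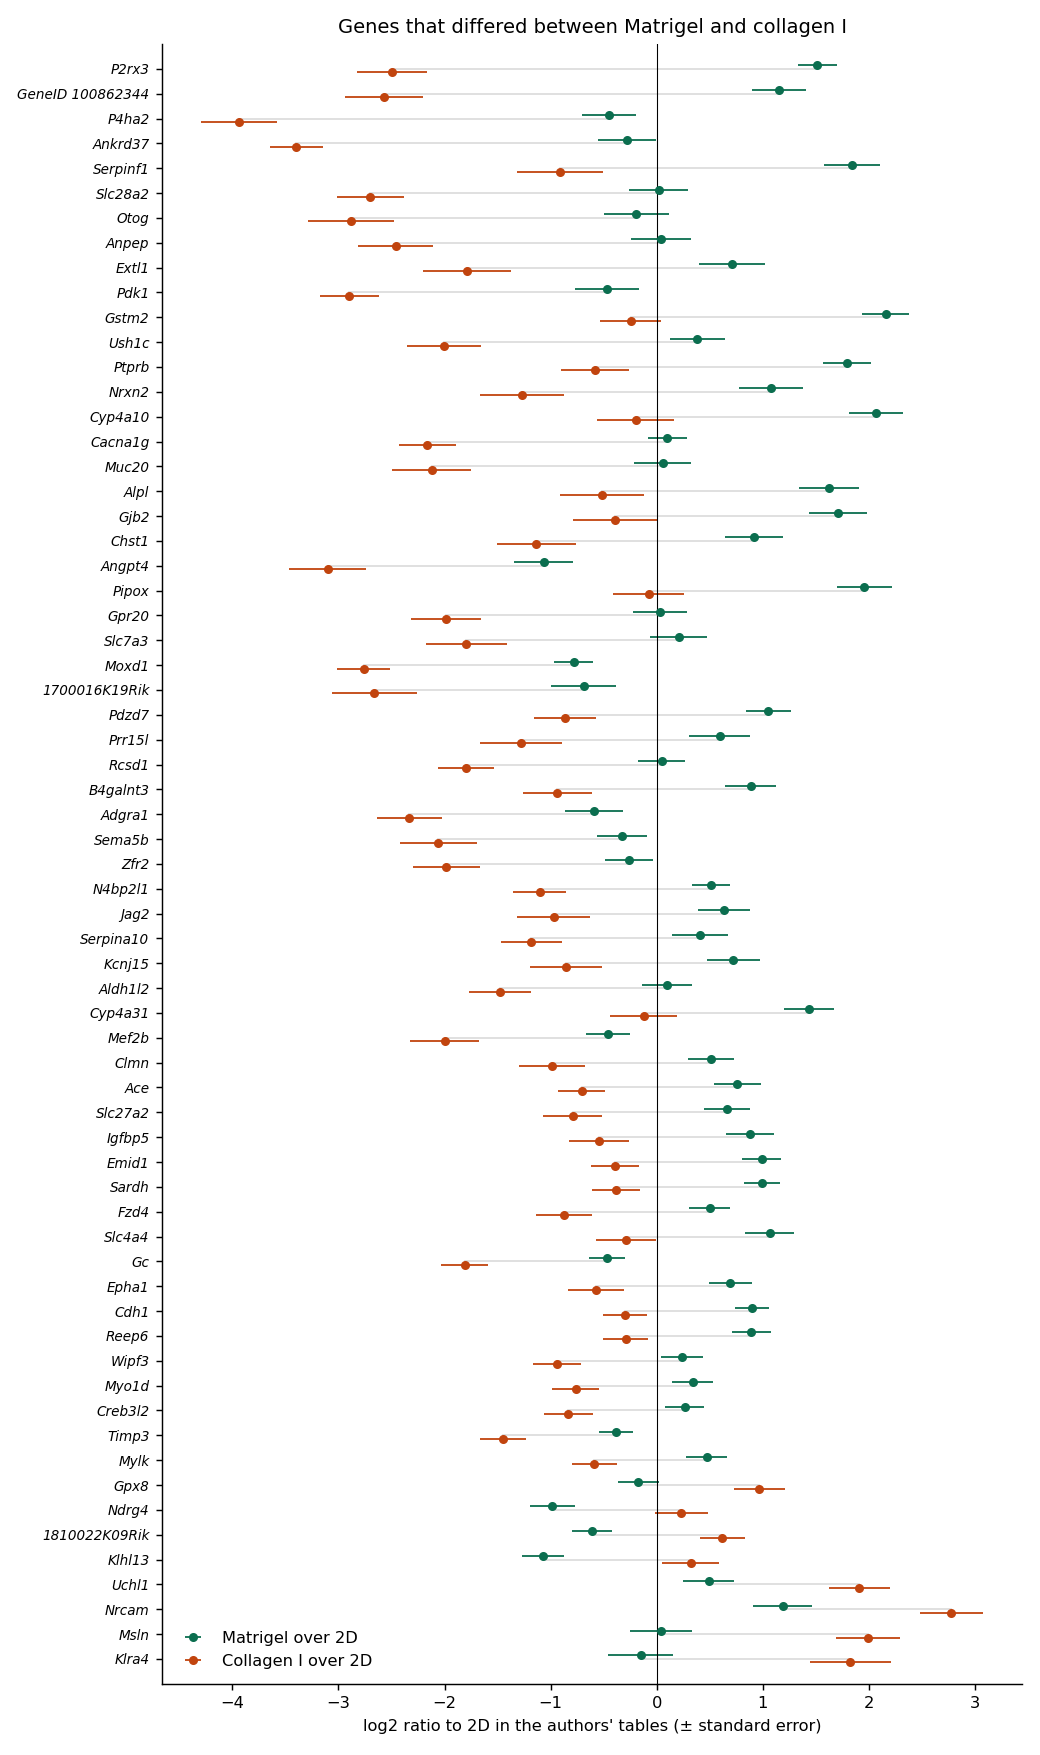
Log2 ratios to 2D (horizontal axis) of 65 of the 66 genes that differed, in Matrigel (green) and in collagen I (orange), as points with ± 1 standard error from the authors' deposited tables, ordered by the difference. P2rx3 is at the top with 1.51 in Matrigel and -2.50 in collagen I, and Klra4 at the bottom with -0.15 in Matrigel and 1.83 in collagen I.

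Genes known to be induced under low oxygen were among those with the largest differences. P4ha2, a catalytic subunit of the prolyl hydroxylase that stabilises collagen chains, was higher in Matrigel than in collagen I by 3.48 ± 0.44 on the log2 scale (SE), an 11.2-fold difference with a 95% interval of 2.62 to 4.34 on the log2 scale. Its log2 ratio to 2D was -0.45 ± 0.26 in Matrigel and -3.94 ± 0.36 in collagen I in the authors' deposited tables. Ankrd37, a small ankyrin repeat protein known as a target of hypoxia-inducible factor, was higher in Matrigel by 3.12 ± 0.37, or 8.68-fold, and overlaps exons of Lrp2bp and Ufsp2. The authors' deposited tables gave Ankrd37 a log2 ratio of -0.28 ± 0.27 in Matrigel and -3.40 ± 0.25 in collagen I. Pdk1, the kinase that turns off pyruvate dehydrogenase and so keeps pyruvate from the citric acid cycle, was higher in Matrigel by 2.43 ± 0.41, or 5.39-fold. Its ratios were -0.47 ± 0.30 in Matrigel and -2.90 ± 0.28 in collagen I in the authors' deposited tables. All 3 genes thus stood close to their 2D level in Matrigel, where none was called, and fell in collagen I.

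The promoters of these 3 genes are shown because they share the short core that hypoxia-inducible factors bind. They come from RefSeq on GRCm38.p6, each with 250 bases before and 50 bases after the gene's start, 5′ to 3′ along the gene. Capitals mark every match to ACGTG or GCGTG on either strand, so that CACGT and CACGC are also in capitals, and matches may overlap. The windows are chr8:45999801-46000100 on the minus strand for Ankrd37, chr11:54100674-54100973 on the plus strand for P4ha2 and chr2:71872974-71873273 on the plus strand for Pdk1.
Ankrd37: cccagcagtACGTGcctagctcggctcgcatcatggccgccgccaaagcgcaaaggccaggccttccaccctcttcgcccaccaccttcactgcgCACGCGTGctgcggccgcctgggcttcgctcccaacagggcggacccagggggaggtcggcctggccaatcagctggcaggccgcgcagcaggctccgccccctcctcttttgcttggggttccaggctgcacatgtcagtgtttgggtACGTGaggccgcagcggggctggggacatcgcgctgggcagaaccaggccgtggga
P4ha2: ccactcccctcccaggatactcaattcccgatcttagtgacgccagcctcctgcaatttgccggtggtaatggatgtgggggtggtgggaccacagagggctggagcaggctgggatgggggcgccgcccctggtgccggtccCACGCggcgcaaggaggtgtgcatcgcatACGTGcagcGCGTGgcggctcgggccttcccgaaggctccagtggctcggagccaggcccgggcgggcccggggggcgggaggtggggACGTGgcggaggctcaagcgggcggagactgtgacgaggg
Pdk1: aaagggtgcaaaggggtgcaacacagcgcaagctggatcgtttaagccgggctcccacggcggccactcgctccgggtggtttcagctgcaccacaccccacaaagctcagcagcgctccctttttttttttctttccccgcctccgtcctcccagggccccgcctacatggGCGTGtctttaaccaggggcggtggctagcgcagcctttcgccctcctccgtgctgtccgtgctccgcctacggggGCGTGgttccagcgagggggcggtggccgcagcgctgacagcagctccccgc
Ankrd37 and P4ha2 held 4 matches each and Pdk1 held 2. Of the first promoters of 27025 genes in that table, 43.8% held at least 1 match and 3.94% held 4 or more. Of the 46 called genes that matched a promoter there, 22 held at least 1 match, a share near the 43.8% of all genes. In the hypoxia list 23 of 26 genes held 1 or more. That list was made of genes already known to respond to low oxygen, so its share is not separate evidence. A match describes these letters and does not show a bound site.

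The list of hypoxia genes outside glycolysis had 32 tested members, of which these 3 were called higher and none lower. Its median difference was 0.51, against -0.015 over all tested genes, and 28 of the 32 were above 0. At an unadjusted p under 0.05, 11 members (34.4%) were higher and 0 lower in Matrigel, against 3.92% and 2.65% of all tested genes. Among members that missed the adjusted threshold, Vegfa, the angiogenic growth factor, differed by 0.94 ± 0.27, and Ddit4, an inhibitor of mTORC1, by 0.92 ± 0.27. Adm, the vasodilator peptide adrenomedullin, differed by 0.82 ± 0.41. Adm was called lower than 2D in both gels in the authors' deposited tables, with log2 ratios of -1.49 ± 0.29 in Matrigel and -2.32 ± 0.29 in collagen I. Of 28 genes of glycolysis and lactate handling, Pdk1 alone was called, and the median was 0.17. At an unadjusted p under 0.05, 6 (21.4%) were higher and 1 (3.57%) lower in Matrigel, against the same 3.92% and 2.65%. Slc2a1, the glucose transporter GLUT1, differed by 0.69 ± 0.31, and Pfkfb3, which makes the activator of phosphofructokinase, by 0.90 ± 0.28, and neither passed the adjusted test. Hk2, Ldha and Pgk1, further genes of this pathway, were at 0.14 ± 0.29, 0.07 ± 0.31 and 0.23 ± 0.32. Oxygen in the gels was not measured.

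P2rx3, which encodes an ATP-gated cation channel best known from sensory neurons, showed the largest difference of the 13763 genes on the scale of the deposited ratios. It was higher in Matrigel than in collagen I by 4.01 ± 0.37 on the log2 scale, 16.1-fold, with a 95% interval of 3.28 to 4.74 and an adjusted p of 1.1e-22 (Benjamini-Hochberg). In the authors' deposited tables P2rx3 rose in Matrigel, with a log2 ratio of 1.51 ± 0.18, and fell in collagen I, with -2.50 ± 0.33. Its base mean was 1891 normalised reads in the Matrigel table and 493 in the collagen I table, both from the authors' deposited tables. The gene lies on chromosome 2 at 84996549 to 85037108 (GRCm38) and overlaps exons of Ssrp1 on the opposite strand. Because the strand setting of the read counting is not given in the sources used here, reads of the overlap cannot be assigned.

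The next genes encode channels, or proteins best known from neurons, and were picked among the 58 higher genes after their values were seen. They do not stand for a neuronal group, since Nrcam and Uchl1, also known from neurons, were lower in Matrigel. Cacna1g, a T-type calcium channel, was higher in Matrigel by 2.26 ± 0.32, with log2 ratios of 0.10 ± 0.18 in Matrigel and -2.16 ± 0.27 in collagen I in the authors' deposited tables. Kcnj15, an inward rectifier potassium channel, was higher by 1.58 ± 0.42. Nrxn2, a neurexin of synaptic contacts, was higher by 2.34 ± 0.50 and was called in opposite directions by the authors' deposited tables, at 1.08 ± 0.30 in Matrigel and -1.27 ± 0.40 in collagen I. Moxd1, a relative of dopamine beta-hydroxylase, was higher by 1.98 ± 0.31, although its ratio was negative in both gels, at -0.78 ± 0.19 in Matrigel and -2.76 ± 0.25 in collagen I in the authors' deposited tables. Sema5b, a semaphorin that guides axons, was higher by 1.73 ± 0.43. A gene listed only by its identifier, GeneID 100862344, followed P2rx3 at 3.72 ± 0.45. Differences implied by the base means turned this order, at 7.45 for GeneID 100862344 and 5.75 for P2rx3.

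Anpep, Slc28a2, Ace, Slc27a2, Slc4a4 and Gc, which have roles in transport or at the surface of tubule cells, were each higher in Matrigel. Of these Anpep belongs to the proximal tubule list, and the others were grouped with it after their values were seen. Anpep, aminopeptidase N of the brush border, was higher in Matrigel than in collagen I by 2.50 ± 0.45, or 5.67-fold. Its log2 ratio to 2D was 0.04 ± 0.28 in Matrigel and -2.46 ± 0.35 in collagen I in the authors' deposited tables. Slc28a2, a sodium-driven transporter of purine nucleosides, was higher by 2.72 ± 0.42, again with a ratio near 0 in Matrigel (0.02 ± 0.28) and a fall in collagen I (-2.70 ± 0.31) in the authors' deposited tables. Ace, the angiotensin-converting enzyme, was higher by 1.47 ± 0.31. Ace rose to 0.76 ± 0.22 over 2D in Matrigel and fell to -0.71 ± 0.22 in collagen I in the authors' deposited tables. Slc27a2, which takes up and activates long-chain fatty acids, was higher by 1.45 ± 0.35, with 0.66 ± 0.22 in Matrigel and -0.79 ± 0.28 in collagen I in the authors' deposited tables. Both genes therefore crossed the 2D level between the gels. Slc4a4, the sodium bicarbonate cotransporter of the basolateral side, was higher by 1.36 ± 0.37, and Gc, the vitamin D-binding protein, by 1.34 ± 0.28. Gc itself was not raised over 2D, with ratios of -0.47 ± 0.17 in Matrigel and -1.81 ± 0.22 in collagen I in the authors' deposited tables.

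Among genes of actin-based protrusions, Ush1c, Pdzd7 and Myo1d were higher in Matrigel, whereas the microvillus proteins villin and ezrin did not pass the test, with Vil1 at -0.093 ± 0.26 and Ezr at -0.015 ± 0.28. Ush1c, or harmonin, which joins the links between microvilli and between stereocilia, was higher by 2.39 ± 0.43, with log2 ratios of 0.38 ± 0.26 in Matrigel and -2.01 ± 0.35 in collagen I in the authors' deposited tables. Pdzd7, a harmonin relative of the stereocilia base, was higher by 1.92 ± 0.36 and was called in opposite directions against 2D, at 1.05 ± 0.21 in Matrigel and -0.86 ± 0.30 in collagen I in the authors' deposited tables. Myo1d, a class I myosin found in brush borders, was 2.14-fold higher (95% interval 0.52 to 1.68 on the log2 scale). Otog, the inner ear matrix protein otogelin, was higher by 2.69 ± 0.51, with 14 of the 66 genes, Otog among them, having a base mean under 100 in at least 1 table. The 14 also included GeneID 100862344, Serpinf1, Extl1, Nrxn2, Muc20, Alpl, Gjb2, Chst1, Angpt4, Slc7a3, 1700016K19Rik and Klra4.

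Most proximal tubule genes did not pass the test. Of 30 tested members of that list Anpep was called, 21 were above 0, and the median difference was 0.31. Without adjustment 5 (16.7%) were higher and 2 (6.67%) lower, against 3.92% and 2.65% of all tested genes. Lrp2 and Cubn, the receptors for protein uptake at the brush border, differed by 0.48 ± 0.27 and 0.71 ± 0.30. Both rose over 2D in Matrigel in the authors' deposited tables, Lrp2 at 0.56 ± 0.16 and Cubn at 0.73 ± 0.19, whereas collagen I gave Lrp2 0.08 ± 0.21 and Cubn 0.01 ± 0.24. Mme, the brush border peptidase neprilysin, and Tmem27, collectrin, stood on the other side at -1.02 ± 0.46 and -0.63 ± 0.30, each with an unadjusted p under 0.05. Of 28 distal nephron genes 9 were above the minimum and 0 were called, with a median of 0.58. At an unadjusted p under 0.05, 3 of the 9 (33.3%) were higher and 0 lower, against 3.92% and 2.65% of all tested genes. They were Slc12a3, the thiazide-sensitive cotransporter, at 1.38 ± 0.52, Scnn1a, a chain of the epithelial sodium channel, at 1.28 ± 0.43, and Wnk4, a kinase that regulates Slc12a3, at 0.91 ± 0.28.

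Cyp4a10, Cyp4a31, Gstm2, Pipox, Sardh and Alpl, a set of metabolic enzymes picked among the 58 higher genes, each rose over 2D in Matrigel in the authors' deposited tables and were not called in collagen I. Cyp4a10 and Cyp4a31, which hydroxylate fatty acids at the omega end and are known targets of PPARα, were higher than in collagen I by 2.27 ± 0.45 and 1.56 ± 0.39. In the authors' deposited tables Cyp4a10 had log2 ratios of 2.07 ± 0.26 in Matrigel and -0.20 ± 0.37 in collagen I. Cyp4a31 had 1.43 ± 0.23 in Matrigel and -0.12 ± 0.31 in collagen I in the authors' deposited tables. Gstm2, a glutathione transferase, was higher by 2.40 ± 0.36, with 2.16 ± 0.22 in Matrigel and -0.25 ± 0.29 in collagen I in the authors' deposited tables. These 3 genes have close paralogs among which reads may be split, so their values are uncertain to that extent. Pipox, the peroxisomal sarcosine and pipecolate oxidase, was higher by 2.03 ± 0.42, with 1.95 ± 0.26 in Matrigel and -0.08 ± 0.34 in collagen I in the authors' deposited tables. Sardh, the mitochondrial sarcosine dehydrogenase, was higher by 1.38 ± 0.28, with 0.99 ± 0.17 in Matrigel and -0.38 ± 0.23 in collagen I in the authors' deposited tables. Alpl, tissue-nonspecific alkaline phosphatase, was higher by 2.14 ± 0.49.

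The lists that hold 2 of these enzymes had no other called member and medians below 0. Of 27 genes of fatty acid oxidation and peroxisomes, Cyp4a10 was called, 19 were below 0 and the median was -0.18. Of 30 NRF2 and glutathione genes, Gstm2 was called, 18 were below 0 and the median was -0.10. Gstm1, its neighbour in the family, was at 0.62 ± 0.29 and Gsta1 at -1.63 ± 0.51, both short of the adjusted threshold. Among 34 genes of the amino acid and unfolded protein stress responses, Slc7a3, a transporter of arginine and lysine, was called at 2.00 ± 0.47. That list had a median of 0.28, with 6 members (17.6%) higher and 0 lower at an unadjusted p under 0.05, against 3.92% and 2.65% of all tested genes. Aldh1l2, a mitochondrial folate enzyme, was higher by 1.58 ± 0.37, and its log2 ratio was 0.10 ± 0.23 in Matrigel and -1.48 ± 0.29 in collagen I in the authors' deposited tables.

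Cdh1, Gjb2, Epha1 and Muc20, genes of epithelial contacts and surfaces, were higher in Matrigel. Cdh1, E-cadherin of the adherens junction, was higher by 1.20 ± 0.26, or 2.29-fold, with a 95% interval of 0.69 to 1.70 on the log2 scale. It rose over 2D in Matrigel at 0.90 ± 0.16 and stood at -0.30 ± 0.20 in collagen I, not called, in the authors' deposited tables. Gjb2, the gap junction protein connexin 26, was higher by 2.10 ± 0.49, and Epha1, an ephrin receptor of epithelia, by 1.27 ± 0.34. Muc20, a membrane mucin, was higher by 2.18 ± 0.46, and part of its exons overlap Muc4. The base means gave no implied difference for Muc20. Of 42 tested genes of junctions, polarity and keratins Cdh1 was called, 38 were above 0 and the median was 0.23. At an unadjusted p under 0.05, 9 (21.4%) were higher and 0 lower, against 3.92% and 2.65% of all tested genes. Epcam, an epithelial adhesion protein, differed by 0.76 ± 0.26, and the epithelial transcription factors Ehf and Ovol1 by 1.55 ± 0.48 and 1.34 ± 0.42, none of them past the adjusted threshold. Tight junction genes ranged from Ocln at 0.06 ± 0.27 and Cldn1 at 0.09 ± 0.32 over Tjp1 at 0.32 ± 0.32 and Tjp3 at 0.48 ± 0.33 to Cldn7 at 0.68 ± 0.29.

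Mesenchymal genes gave no called member out of 22 tested, with a median of -0.14 that turned to 0.0095 with no minimum on the base mean. At an unadjusted p under 0.05, 4 (18.2%) were lower and 2 (9.09%) higher, against 2.65% and 3.92% of all tested genes. Among the 4 lower, Zeb2, a repressor of Cdh1, was at -1.18 ± 0.38 and Cdh2, N-cadherin, at -0.66 ± 0.31. In the authors' deposited tables Zeb2 fell in Matrigel at -1.36 ± 0.27 and stood at -0.19 ± 0.27 in collagen I, and Cdh2 fell in Matrigel at -0.69 ± 0.21 and stood at -0.02 ± 0.23 in collagen I. Gas6, a ligand of the AXL receptor, and the cadherin Cdh11 were the 2 on the other side of this list, at 1.64 ± 0.46 and 1.09 ± 0.43. The list's summed base mean was 91945 normalised reads in the Matrigel table and 77333 in the collagen I table of the authors' deposited tables, with Spp1 as the gene of highest base mean in both. Without Spp1 these sums turned, to 26411 in the Matrigel table and 28123 in the collagen I table of the authors' deposited tables.

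No receptor for the matrix itself passed the test. Of all tested genes 0.48% passed it, so 0 called in lists this short is near that share. The largest value was that of Itga9, an integrin chain that binds tenascin C, at 0.995 ± 0.40, from a list of 7 other integrins with a median of 0.44. All 6 tested collagen receptors missed the threshold, with a median of 0.27. Among them Itga2, the collagen-binding integrin α2, differed by 0.66 ± 0.43, the discoidin receptors Ddr2 and Ddr1 by 0.59 ± 0.35 and 0.35 ± 0.26, Itga10 by 0.20 ± 0.44, Itga1 by 0.07 ± 0.30, and the shared β1 chain Itgb1 by -0.21 ± 0.26. The ratio of Itga2 to 2D was -0.49 ± 0.28 in Matrigel and -1.15 ± 0.33 in collagen I in the authors' deposited tables, with a call in collagen I. All 9 laminin and basement membrane receptors also missed the threshold, with a median of 0.33. The chains of the laminin receptor α6β4 stood highest among them, Itga6 at 0.66 ± 0.28 and Itgb4 at 0.66 ± 0.26, followed by the laminin receptor Bcam at 0.59 ± 0.27. These 3 of the 9 (33.3%) were higher at an unadjusted p under 0.05 and 0 were lower, against 3.92% and 2.65% of all tested genes. The laminin-binding integrin chains Itga3 and Itga7 were at 0.53 ± 0.31 and 0.33 ± 0.32, Dag1, which encodes dystroglycan, at 0.23 ± 0.28, the syndecans Sdc4 and Sdc1 at 0.23 ± 0.25 and -0.08 ± 0.27, and Rpsa at -0.12 ± 0.26.

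Basement membrane components had 0 called of 23 tested, again near the 0.48% of all tested genes, with 19 above 0 and a median of 0.41. At an unadjusted p under 0.05, 4 (17.4%) were higher and 1 (4.35%) lower, against 3.92% and 2.65% of all tested genes. Lamb3 and Lama3, which encode laminin chains, stood highest at 1.17 ± 0.32 and 1.15 ± 0.34. Lamb3 missed the threshold with a Benjamini-Hochberg adjusted p of 0.057. Its log2 ratio was -0.44 ± 0.20 in Matrigel and -1.61 ± 0.25 in collagen I in the authors' deposited tables. Lama5, a laminin α chain of tubule basement membranes, was at 0.80 ± 0.28, the perlecan gene Hspg2 at 0.59 ± 0.28 and the collagen IV genes Col4a1 and Col4a2 at 0.36 ± 0.26 and 0.42 ± 0.27. Nid1, the nidogen that links laminin to collagen IV, was lowest at -0.66 ± 0.27. The plot of matrix genes shows collagen and laminin receptor values between -0.21 and 0.66.

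**Figure D3:**
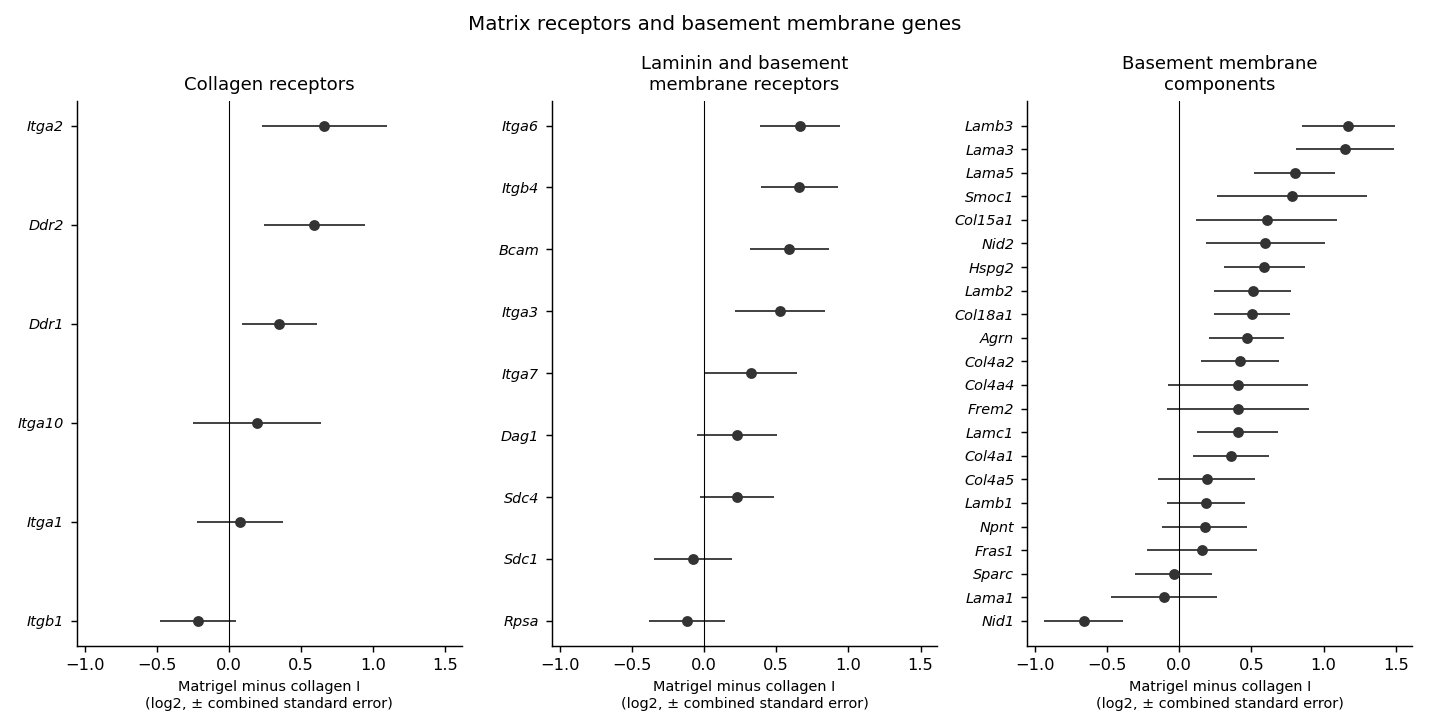
Difference between Matrigel and collagen I (horizontal axis, log2) for the 6 collagen receptors, 9 laminin and basement membrane receptors and 22 of the 23 basement membrane components above the minimum, as points with ± 1 combined standard error. None shown passed the test, and values run from -0.66 for Nid1 to 1.17 for Lamb3.

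The called genes that act on the matrix were enzymes, inhibitors and secreted factors. P4ha2 was the called member of 19 collagen-modifying enzymes, whose median was 0.23, and P4ha1, the main alternative to P4ha2 in the same enzyme, was at 0.50 ± 0.28. Timp3, a metalloproteinase inhibitor that binds to the matrix, was higher by 1.07 ± 0.27. Its log2 ratio was -0.38 ± 0.16 in Matrigel and -1.45 ± 0.22 in collagen I in the authors' deposited tables, and the gene overlaps exons of Syn3. The other 25 tested proteases and inhibitors were not called, and the list's median was -0.0046, turning positive under other scalings. Col1a1, a chain of collagen I itself, was at 1.62 ± 0.45 with a Benjamini-Hochberg adjusted p of 0.060. In the authors' deposited tables Col1a1 had log2 ratios of -0.73 ± 0.31 in Matrigel and -2.35 ± 0.33 in collagen I. Fn1, fibronectin, fell in both gels in the authors' deposited tables, at -1.97 ± 0.21 in Matrigel and -1.73 ± 0.26 in collagen I, and its difference was -0.24 ± 0.33.

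Secreted factors that were higher in Matrigel included Serpinf1, the anti-angiogenic factor PEDF, at 2.75 ± 0.48. Serpinf1 rose to 1.84 ± 0.26 over 2D in Matrigel and stood at -0.91 ± 0.41 in collagen I in the authors' deposited tables. Igfbp5, which binds insulin-like growth factors and had the highest base mean of the 66 genes, was higher by 1.42 ± 0.36. Emid1, a secreted protein with an EMI domain, was higher by 1.38 ± 0.29, with 0.99 ± 0.18 in Matrigel and -0.40 ± 0.23 in collagen I in the authors' deposited tables. Serpina10, an inhibitor of coagulation factor X, was higher by 1.59 ± 0.39, and Angpt4, an angiopoietin, by 2.04 ± 0.46. Angpt4 fell against 2D in both gels in the authors' deposited tables, at -1.07 ± 0.28 in Matrigel and -3.10 ± 0.37 in collagen I. The glycan enzymes Extl1, Chst1 and B4galnt3 were higher by 2.50 ± 0.52, 2.05 ± 0.47 and 1.82 ± 0.40.

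Receptors and regulators made up much of the rest. Ptprb, a receptor tyrosine phosphatase best known from endothelium, was higher by 2.38 ± 0.39, with 1.79 ± 0.22 in Matrigel and -0.58 ± 0.32 in collagen I in the authors' deposited tables. Fzd4, a Frizzled receptor, was higher by 1.37 ± 0.33 and was the called member of 24 WNT pathway genes, whose median was 0.024. Axin2 and Lef1, transcriptional targets of the pathway, were at -1.11 ± 0.44 and -1.02 ± 0.48, not past the adjusted threshold. Notum, also of that list and not called, stood on the other side at 1.11 ± 0.47. At an unadjusted p under 0.05, 2 of the 24 (8.33%) were higher and 2 (8.33%) lower, against 3.92% and 2.65% of all tested genes. Jag2, a Notch ligand, was 3.04-fold higher. The orphan receptors Gpr20 and Adgra1 were higher by 2.02 ± 0.42 and 1.74 ± 0.41. Among transcription factors Mef2b was higher by 1.54 ± 0.39 and Creb3l2 by 1.10 ± 0.29. Mylk, the myosin light chain kinase, was higher by 1.06 ± 0.28 and was the called member of 30 actin and serum response genes, whose median was -0.086 and turned to 0.032 from implied levels. Wipf3, a partner of WASP proteins, and Rcsd1, which binds the actin capping protein, were higher by 1.18 ± 0.30 and 1.84 ± 0.34. Further higher genes were Prr15l, Zfr2, N4bp2l1, Clmn, Reep6 and 1700016K19Rik, between 1.19 and 1.97.

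Mesothelin, neuronal adhesion and ubiquitin pathway genes were among the 8 lower in Matrigel. Msln, which encodes mesothelin, a surface protein of mesothelium and of several carcinomas, differed by -1.95 ± 0.42, or 3.87-fold lower in Matrigel. Its log2 ratio was 0.04 ± 0.29 in Matrigel and 1.99 ± 0.30 in collagen I in the authors' deposited tables. Nrcam, a neuronal cell adhesion molecule, differed by -1.59 ± 0.41 and rose against 2D in both gels in the authors' deposited tables, at 1.19 ± 0.28 in Matrigel and 2.78 ± 0.30 in collagen I. Uchl1, a ubiquitin hydrolase abundant in neurons, differed by -1.42 ± 0.37, with 0.49 ± 0.24 in Matrigel and 1.91 ± 0.29 in collagen I in the authors' deposited tables. Klhl13, an adaptor of a cullin ubiquitin ligase, differed by -1.39 ± 0.33 and Ndrg4 by -1.22 ± 0.33. Both fell in Matrigel in the authors' deposited tables, Klhl13 at -1.07 ± 0.20 and Ndrg4 at -0.99 ± 0.21, while collagen I gave Klhl13 0.32 ± 0.27 and Ndrg4 0.23 ± 0.25. The gene 1810022K09Rik differed by -1.23 ± 0.29 and was called in opposite directions against 2D by the authors' deposited tables, at -0.61 ± 0.19 in Matrigel and 0.62 ± 0.21 in collagen I. Gpx8, a peroxidase of the endoplasmic reticulum, differed by -1.14 ± 0.31, with -0.17 ± 0.19 in Matrigel and 0.97 ± 0.24 in collagen I in the authors' deposited tables. Klra4, of a family of natural killer cell receptors with close paralogs, differed by -1.98 ± 0.49 at a base mean of 16.0 normalised reads in the Matrigel table and 65.9 in the collagen I table of the authors' deposited tables.

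Across the 37 gene lists, 11 held 1 or more called genes, all of them higher in Matrigel, and 55 of the 66 called genes were in none. Of all 66 called genes 87.9% were higher, so the shared direction is near that share. With 0.48% of all tested genes called, a list with 0 called genes is also near the background. Lists of cell division lay below 0 as a whole without a called member. All 37 genes of DNA replication were below 0, with a median of -0.56 and a range of -1.29 to -0.11, and 8 (21.6%) had an unadjusted p under 0.05 against 2.65% of all tested genes. Pcna, the polymerase clamp, was at -0.68 ± 0.30 and Mcm4, of the replicative helicase, at -0.65 ± 0.29. In the authors' deposited tables Pcna rose in both gels, at 0.70 ± 0.19 in Matrigel and 1.39 ± 0.24 in collagen I. All 30 mitosis genes were also below 0, with a median of -0.46, but 1 (3.33%) had an unadjusted p under 0.05, a share close to the background. Members of such lists vary together between cultures, so the number below 0 is not a count of independent observations.

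Cholesterol synthesis and uptake had 21 of 25 genes below 0 and a median of -0.32, with 5 (20%) lower at an unadjusted p under 0.05, against 2.65% of all tested genes. Idi1, isopentenyl diphosphate isomerase, was lowest at -1.13 ± 0.31, and its log2 ratio was 1.31 ± 0.19 in Matrigel and 2.44 ± 0.25 in collagen I in the authors' deposited tables. Respiratory chain genes had 29 of 34 below 0 and a median of -0.22, with 4 (11.8%) lower at an unadjusted p under 0.05, against the same 2.65%. Lists with medians within 0.15 of 0 and 0 called genes were fibrillar collagens, cornified genes, mesenchymal genes, YAP/TAZ targets, TGF-beta and BMP signalling, cytokines, cilium genes, immediate early genes and endothelial markers. Nephron transcription factors had a median of 0.28 and 0 called of 15, and the reprogramming factors Emx2, Hnf4a and Pax8 were at -0.050 ± 0.26, 0.072 ± 0.26 and 0.35 ± 0.26. Whether reads of these factors came from introduced copies or from the cells' own genes was not tested.

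**Figure D4:**
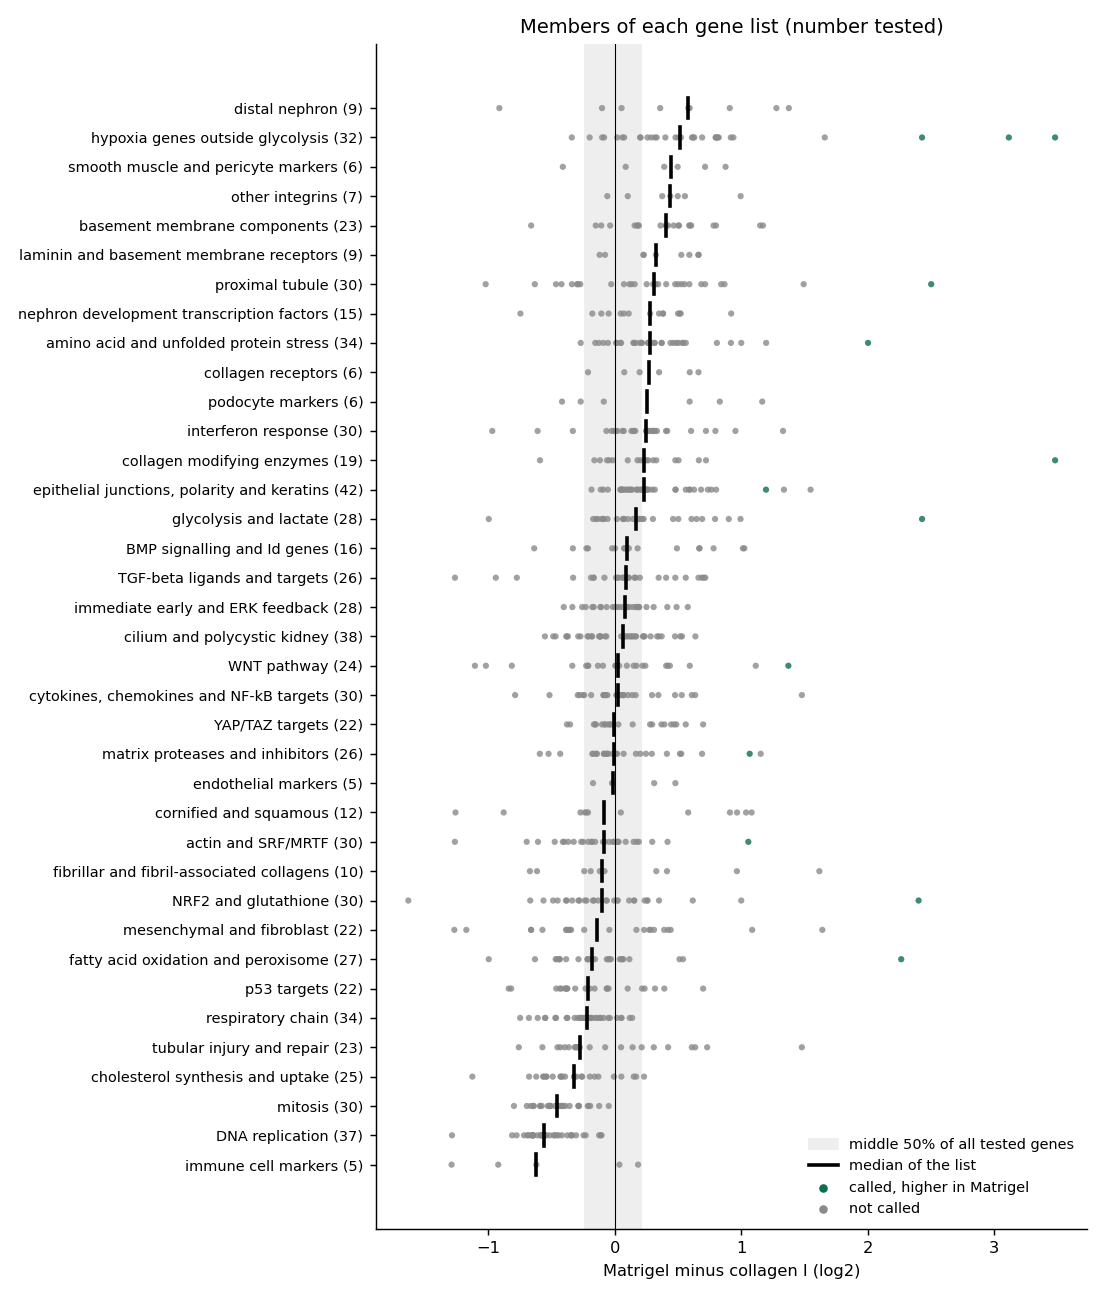
Difference between Matrigel and collagen I (horizontal axis, log2) of each tested member of the 37 gene lists, with the number tested in parentheses, a black tick at each list's median and a grey band for the middle 50% of all tested genes. Medians run from 0.58 for distal nephron genes to -0.62 for immune markers. The 11 called genes, in green, are all higher in Matrigel, as were 87.9% of all 66 called genes. P4ha2 and Pdk1 are each shown in more than 1 list.

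Some markers of other cell types were near 0 in both tables, while other members of the same lists were well above the minimum. In the authors' deposited tables for Matrigel and collagen I, the endothelial marker Egfl7 had base means of 626 and 493. The immune marker Cd74 had 589 and 554, the podocyte marker Cd2ap 12623 and 13100, and the smooth muscle and pericyte marker Mcam 1721 and 1328. Of 14 endothelial markers 5 were tested and 0 called, and Emcn, Erg, Esam, Kdr and Sox17 had base means under 1 in both of the authors' deposited tables. Of 17 immune markers 5 were tested and 0 called, with a median of -0.62, and Cd3e, Cd4, Cd8a and Tyrobp were among those under 1 in both of the authors' deposited tables. At an unadjusted p under 0.05, 2 of the 5 (40%) were lower in Matrigel, against 2.65% of all tested genes. They were Icos, a costimulatory receptor of T cells, at -1.29 ± 0.41 and Cd68, a lysosomal protein of macrophages, at -0.92 ± 0.37. The immune markers summed to 1480 normalised reads in the Matrigel table and 1743 in the collagen I table of the authors' deposited tables, and Klra4 was among the genes lower in Matrigel beside them. The endothelial markers summed to 1423 in the Matrigel table and 1173 in the collagen I table of the authors' deposited tables, and Ptprb and Angpt4 were among the genes higher in Matrigel beside them. Podocyte markers had 0 called of 6 tested and a median of 0.25, and smooth muscle markers 0 of 6 and a median of 0.44. The labels name iRECs alone as the cells of each library, and the part of other cells in these differences was not tested. In bulk RNA, fewer cells of a type and less RNA per cell cannot be told apart.

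The fibrin and printed cultures of the same study give a background for these genes through their own ratios to the same 2D libraries, listed here with no test. The 3 hypoxia genes stood below 2D in fibrin and above it in the printed cultures, which were dispensed by inkjet in fibrin and collagen I. In the authors' deposited tables P4ha2 was at -1.78 ± 0.29 in fibrin and 1.46 ± 0.30 in the printed cultures, Ankrd37 at -1.91 ± 0.22 in fibrin and 0.38 ± 0.29 in the printed cultures, and Pdk1 at -1.57 ± 0.22 in fibrin and 1.07 ± 0.29 in the printed cultures. P2rx3 was at -2.55 ± 0.25 in fibrin, next to its collagen I value of -2.50 ± 0.33, and at 0.91 ± 0.27 in the printed cultures in the authors' deposited tables. Anpep was at -2.23 ± 0.35 in fibrin and Ush1c at -1.65 ± 0.33, again near their collagen I values in the authors' deposited tables. By contrast, Cyp4a10 was at 0.25 ± 0.31 in fibrin and -0.04 ± 0.32 in the printed cultures, and its Matrigel ratio of 2.07 ± 0.26 stood apart in the authors' deposited tables. Ace was at -0.04 ± 0.26 in fibrin and 0.09 ± 0.27 in the printed cultures, between its Matrigel and collagen I values in the authors' deposited tables. Msln was at -0.03 ± 0.32 in fibrin and 1.53 ± 0.30 in the printed cultures, beside its collagen I ratio of 1.99 ± 0.30 in the authors' deposited tables.

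**Figure D5:**
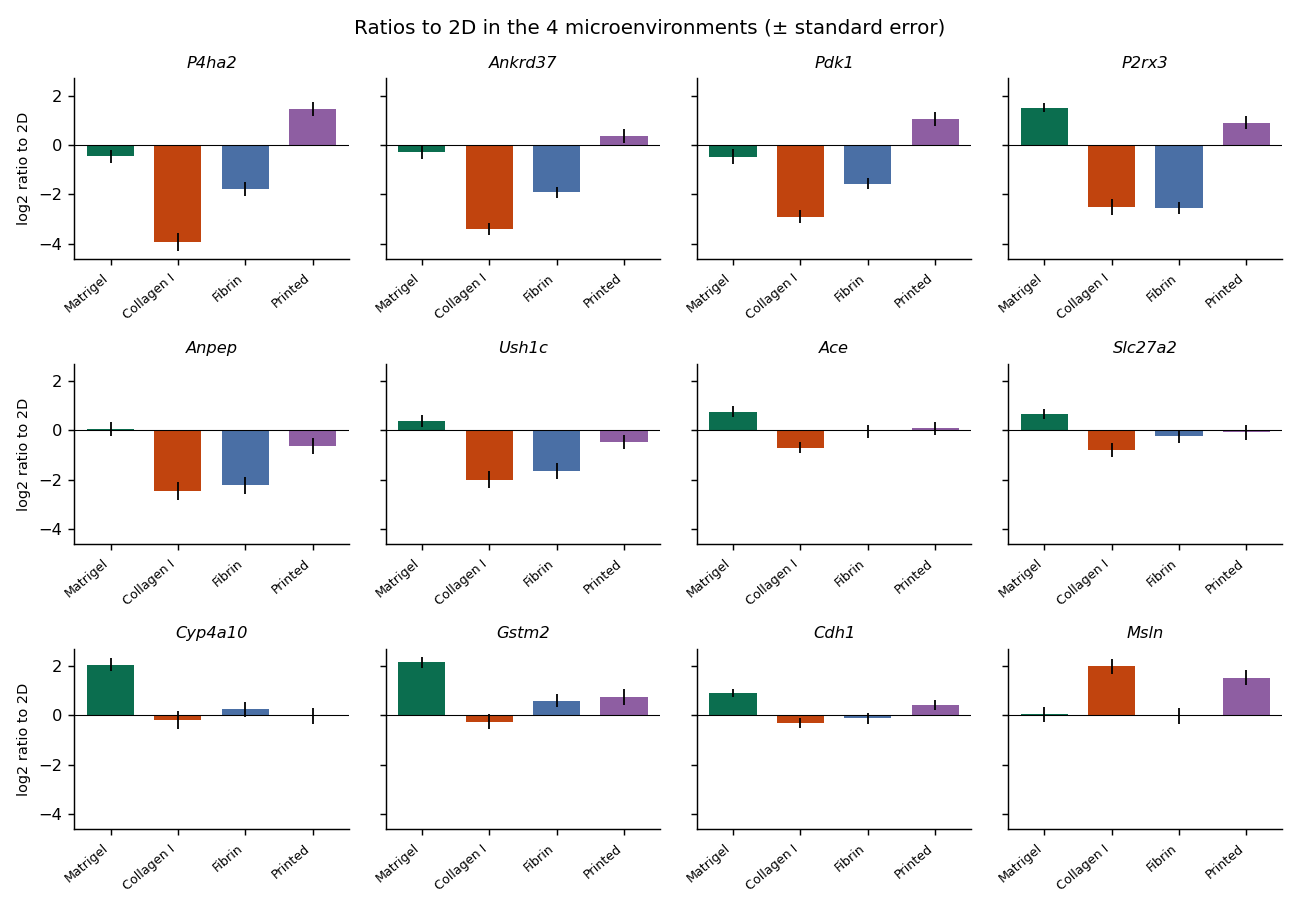
Log2 ratios to 2D (vertical axis) of 12 genes in Matrigel, collagen I, fibrin and printed cultures, as bars from 0 with ± 1 standard error from the authors' deposited tables. P4ha2, Ankrd37 and Pdk1 are lowest in collagen I, P2rx3 is similarly low in collagen I and fibrin, and Cyp4a10 and Gstm2 are highest in Matrigel.

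The 95% intervals combine the standard errors of the authors' fits, with 3 cultures per group, as if both ratios were independent. The variance of the shared 2D libraries thus enters through both ratios. The intervals also hold only on the scale of the deposited ratios. Some implied differences lay outside them, at 5.75 for P2rx3 (interval 3.28 to 4.74) and 2.38 for P4ha2 (2.62 to 4.34). Of the 66 genes, 23 overlap exons of another annotated gene, mostly on the opposite strand, and reads of such overlaps cannot be assigned. Among them are P2rx3, Ankrd37 (with Lrp2bp and Ufsp2), Nrxn2 (with Slc22a12), Ush1c, Pdzd7 (with Lzts2), Ace, Slc27a2, Sardh, Aldh1l2, Epha1 (with Zyx), Timp3, Muc20 and Uchl1. Differences implied by the base means were more than 1.5 times the reported ones for GeneID 100862344, Serpinf1 (5.46), Extl1 (4.28), Alpl (3.48), Gjb2 (3.43), Chst1 (3.10), Pipox (3.08) and Klra4 (-3.84), so the printed differences of these genes may be understated. The implied differences were smaller than the reported ones for P4ha2 (2.38), Ankrd37 (2.71) and Pdk1 (2.04). The printed differences and fold values of these hypoxia genes may therefore be overstated.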

How the data were processed

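RNA of iRECs was sequenced, and the authors deposited 1 table of results for each of 4 microenvironments against 2D. Genome build mm10, which is GRCm38, DESeq2 1.22.1, featureCounts 1.6.3, STAR 2.6.0b-1, FastQC 0.72 and Trim Galore 0.4.3 are named in the submitters' processing notes. Strand setting, annotation and model terms were not given in the sources used here. Per the file headers, the base mean is a signal, the mean of normalised read counts over the 3 libraries of a microenvironment and the 3 in 2D. The deposited fold change and its standard error are log2 values. The deposited Wald statistic is a score, and the authors gave a p-value and an adjusted p-value with it. No library's depth can be had from these tables, which hold 0 columns of values per library.

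The tables for Matrigel and collagen I were joined on the gene identifier. The difference was the Matrigel log2 ratio minus the collagen I log2 ratio, with a combined standard error, the square root of the sum of both squared standard errors. Its normal p (two-sided) was adjusted over 13763 genes by Benjamini-Hochberg (Python 3.11.15, pandas 2.3.3, scipy 1.17.1) and called under 0.05. This standard error treats both ratios as independent although they share the 2D libraries. The scripts were tested on simulated data. The deposited ratios were read as shrunken towards 0, so fold differences of genes with few reads may be understated. The RefSeq table (GRCm38.p6, coordinates counted from 1) held 93.0% of the identifiers, and 874 had no symbol.

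The members, the 37 gene lists and the tests were chosen with earlier results of these data known. Lists were described by counts and medians and not tested. The rule for named genes took, among genes with base means of 100 or more and a symbol, the 12 highest and the 12 lowest called differences, 6 called genes with opposite authors' calls, up to 3 called members per list and direction, and every tested receptor of the collagen and the laminin and basement membrane receptor lists. Other called genes are named because the called genes are described as a whole, a few genes are not reported here, and uncalled list members outside these receptor lists were picked after their values were seen. Alternatives varied the base mean minimum, the shared variance, the null, the centring and the scale of the ratios. No replicate was left out, for want of values per library.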

Additional observations from a re-analysis of the deposited data

Results flagged for a closer look

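In 9 of the 66 genes the authors' adjusted p against 2D was under 0.05 in both deposited tables with opposite signs, and the difference between the gels itself passed the test. Of these, 8 rose over 2D in Matrigel and fell in collagen I. P2rx3 differed by 4.01 on the log2 scale and GeneID 100862344 by 3.72. Nrxn2 differed by 2.34 and the sulfotransferase gene Chst1 by 2.05. The scaffold gene Pdzd7 differed by 1.92 and the glycosyltransferase gene B4galnt3 by 1.82. The brush border genes Ace and Slc27a2 differed by 1.47 and 1.45. The remaining gene, 1810022K09Rik, fell in Matrigel and rose in collagen I, with a difference of -1.23.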

How the results depend on the processing

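With 0.5 of the summed variance, as if that share of each squared standard error came from the shared 2D libraries, 636 genes passed the test, 397 higher and 239 lower in Matrigel, of which 295 differed by 1 or more. The share of called genes that were higher was then 62.4%, against 87.9% with the combined error. The spread of the test statistic from its quartiles was 1.41 there and 0.998 with the combined error. With no minimum on the base mean 53 genes were higher and 9 lower (58 of the 66 shared), with a minimum of 100 the counts were 45 and 7 (52 shared), and with ratios rescaled for shrinkage 60 and 6 (63 shared). Centring the differences on their median or using an empirical null gave 62 higher and 8 lower in each case, with all 66 shared. Keeping genes without a deposited p could change nothing, because 0 genes above the minimum lacked one. Creb3l2, Epha1, Gpx8, Kcnj15, Mylk, Myo1d, Ndrg4 and Slc4a4 lost their call with no minimum, where more genes were tested, and Gpx8, Nrcam and Uchl1 lost it after rescaling. The 14 genes with a base mean under 100 were not tested with the minimum of 100.

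Differences recomputed from the levels that base means imply kept their sign in all 65 called genes with a value, at 0.684 to 2.00 times the reported size (median 1.24, 9 over 1.5), and Sdc1 turned to 0.041. List medians that turned their sign were, with no minimum, fibrillar collagens 0.023, cornified genes 0.0033 and mesenchymal genes 0.0095. With the minimum of 100 they were fibrillar collagens 0.33 and endothelial markers 0.31. With the empirical null they were proteases 0.0098, YAP/TAZ targets 0.010 and endothelial markers 0.0037, with centring proteases 0.010 and YAP/TAZ targets 0.012, and after rescaling proteases 0.038 and cornified genes 0.0076. From implied levels they were proteases 0.13, cornified genes 0.027, mesenchymal genes 0.032, actin genes 0.032, YAP/TAZ targets 0.15 and endothelial markers 0.10. The cause was not tested.

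No paired analysis was possible because the deposited tables hold no values per library, and for the same reason no replicate was left out.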

Other observations

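Lists of interferon response, tubular injury and p53 targets held no called gene, which is near the 0.48% of all tested genes. The 30 tested interferon genes had a median difference of 0.25 with 24 above 0, and 2 higher and 2 lower members (6.67% each) at an unadjusted p under 0.05, near the 3.92% and 2.65% of all tested genes. The 23 genes of tubular injury and repair had a median of -0.28, with Lcn2, the secreted injury marker NGAL, at 1.48 ± 0.52 and Havcr1, the injury marker KIM-1, at -0.32 ± 0.48. The 22 p53 targets had a median of -0.22 with 16 below 0, and Cdkn1a, the cell cycle inhibitor p21, was at -0.20 ± 0.30. These genes were picked after their values were seen.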
